A study of Mus musculus with 6 samples.

Results

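Chromatin accessibility at genes for Toll-like receptors and related innate sensors was examined in the small intestinal crypts of WT and Smarcad1-KO mice. The genes were Tlr1, Tlr2, Tlr3, Tlr4, Tlr5, Tlr9, Myd88, Nod1, Nod2 and Nlrp6. A peak was assigned to a gene when the deposited peak table gave exactly that gene's name, which the study did for the closest gene within 5 kb. In all, 17 of the 123510 peaks carried one of these names, and they fell on 7 of the 10 genes. All mice were C57BL/6 males. The KO mice were Villin-Cre Smarcad1 fl/fl, in which Cre is driven by the Villin promoter in intestinal epithelium and removes exons 12 to 14 of Smarcad1, a chromatin remodeler, and they came from a mouse line founded by a single targeted stem cell clone. The WT mice were labelled wild type. There was 1 library of whole-crypt nuclei for each of 3 WT and 3 KO samples, and age was not given in the sources used here. The assay was ATAC-seq, which inserts sequencing adaptors with a transposase wherever DNA is not packed away, so many reads at a site stand for open chromatin. No peak covered the deleted Smarcad1 exons, so the peak values gave no check of the genotype labels. Reads outside peaks were not examined.

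Toll-like receptors are membrane proteins that recognise conserved microbial molecules. Tlr2, which pairs with Tlr1 or Tlr6, binds bacterial lipoproteins, Tlr4 binds lipopolysaccharide with its partner Ly96 (MD-2), and Tlr5 binds flagellin. Tlr3 and Tlr9 lie in endosomes and recognise double-stranded RNA and unmethylated CpG DNA. Myd88 is the adaptor that carries the signal of most of these receptors to NF-kB, a transcription factor that switches on inflammatory genes. Nod1 and Nod2 sense fragments of bacterial peptidoglycan inside the cell, and Nlrp6 is a cytosolic sensor known for its role in the gut epithelium. The intestinal epithelium lives next to dense microbiota, and sensing by these proteins is known to be kept in check there by low expression and by placement away from the lumen. The same receptors are also carried by leukocytes, and in bulk nuclei fewer cells of a type and less open chromatin per cell cannot be told apart.

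The sequences shown are those on which the results below turn, namely the DNA just upstream of the annotated starts of Tlr2, Tlr4, Tlr3 and Nod2, and the centres of the 2 peaks with the smallest p-values. They were read from the RefSeq copy of GRCm38 in the direction of transcription of the named gene, and none of them overlaps an annotated UTR. Capitals mark matches to an NF-kB motif (GGG, any 5 bases, CC) or a GC box (GGGCGG) on either strand, with overlapping matches merged. For AP-1 the motif searched was TGANTCA, and for GATA factors it was AGATAA. For ETS factors the letters were CCGGAA, and for the E-box they were CACGTG. These windows held no match to those 4 motifs.
Tlr2 upstream of the gene start, minus strand, chr3:83841768-83842067: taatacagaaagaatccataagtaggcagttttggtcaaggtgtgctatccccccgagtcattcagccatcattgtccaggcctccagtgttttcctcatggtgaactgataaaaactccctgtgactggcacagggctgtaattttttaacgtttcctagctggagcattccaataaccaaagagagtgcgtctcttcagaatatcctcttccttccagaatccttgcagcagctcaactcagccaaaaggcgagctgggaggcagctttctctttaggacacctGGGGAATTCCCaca
Tlr2 peak downstream of the gene, centre, minus strand, chr3:83831251-83831550: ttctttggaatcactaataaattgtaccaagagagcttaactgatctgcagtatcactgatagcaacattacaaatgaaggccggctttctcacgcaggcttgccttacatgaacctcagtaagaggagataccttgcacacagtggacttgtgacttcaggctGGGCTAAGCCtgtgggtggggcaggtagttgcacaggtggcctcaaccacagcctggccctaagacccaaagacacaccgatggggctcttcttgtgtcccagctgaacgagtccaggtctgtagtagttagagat
Tlr4 upstream of the gene start, plus strand, chr4:66827284-66827583: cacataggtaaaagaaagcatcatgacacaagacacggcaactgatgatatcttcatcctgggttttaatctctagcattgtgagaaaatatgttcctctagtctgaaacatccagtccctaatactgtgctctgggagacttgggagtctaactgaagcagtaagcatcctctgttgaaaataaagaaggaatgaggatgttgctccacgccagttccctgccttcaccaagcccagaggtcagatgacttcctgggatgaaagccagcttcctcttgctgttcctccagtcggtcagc
Tlr4 intron peak, centre, plus strand, chr4:66908476-66908775: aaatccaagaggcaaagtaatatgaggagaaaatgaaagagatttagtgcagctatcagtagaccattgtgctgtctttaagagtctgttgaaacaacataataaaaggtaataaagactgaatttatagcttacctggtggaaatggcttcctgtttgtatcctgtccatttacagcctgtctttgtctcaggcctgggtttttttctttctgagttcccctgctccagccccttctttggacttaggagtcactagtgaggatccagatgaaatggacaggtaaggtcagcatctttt
Tlr3 upstream of the gene start, minus strand, chr8:45411081-45411380: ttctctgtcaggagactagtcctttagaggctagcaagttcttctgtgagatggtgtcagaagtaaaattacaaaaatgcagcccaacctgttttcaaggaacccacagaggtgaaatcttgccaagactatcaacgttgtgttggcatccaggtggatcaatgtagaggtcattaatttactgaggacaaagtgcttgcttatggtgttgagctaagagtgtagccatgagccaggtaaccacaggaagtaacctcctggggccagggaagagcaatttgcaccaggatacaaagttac
Nod2 upstream of the gene start, plus strand, chr8:88647015-88647314: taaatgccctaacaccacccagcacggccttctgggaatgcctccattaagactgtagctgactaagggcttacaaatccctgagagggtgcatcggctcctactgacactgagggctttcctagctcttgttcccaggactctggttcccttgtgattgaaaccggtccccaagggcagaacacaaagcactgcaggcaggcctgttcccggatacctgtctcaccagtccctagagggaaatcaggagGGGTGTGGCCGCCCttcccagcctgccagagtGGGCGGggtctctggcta

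The Tlr2 window held a run of overlapping NF-kB motif matches that began 14 bases before the gene start. The Nod2 window held a match that began 50 bases before the start, followed by GC boxes 42 and 18 bases before it. The upstream windows of Tlr4 and Tlr3 held no match to any of the 6 motifs. These letters are frequent, since an NF-kB match was present in 53.1% of the 300 bp windows upstream of 21938 protein-coding genes and a GC box in 40.4%. In the central 300 bp of the peaks, 11 of the 17 sensor peaks held the NF-kB motif against 39.9% of all peaks, 4 held a GC box against 10.8%, 2 held GATA against 16.5% and 1 held AP-1 against 11.6%. None held ETS (5.48% of all peaks) or the E-box (4.48%). Of the 17 sensor peaks, 6 lay within 1 kb of a transcript start of their gene, while 17.1% of all peaks lay within 1 kb of any transcript start. Motif shares were not taken for peaks near starts alone, so these figures do not set sensor genes apart from other gene starts. A match describes letters and not bound protein. GC content set the gene starts apart from one another. The gene-start peak of Tlr2 had 59.0% GC, above 95.9% of all peaks. Those of Nod2 and Nod1 had 53.8% and 51.9%, near the median of 53.2% in all peaks within 1 kb of a transcript start. Those of Tlr4 and Tlr3 had 47.2% and 46.8%, below that median and close to the 47.6% median of all peaks. The ratio of observed to expected CpG was highest in the Nod1 gene-start peak (0.603) and was 0.461 at Tlr2, 0.451 at Nod2, 0.325 at Tlr4 and 0.236 at Tlr3, against a median of 0.472 in all peaks within 1 kb of a transcript start.

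Tlr4 carried 5 peaks, Nod2 carried 4, Tlr2 carried 3, Nod1 carried 2, and Tlr1, Tlr3 and Tlr5 carried 1 each. No peak in the table was named after Tlr9, Myd88 or Nlrp6, and by the GENCODE annotation none lay within 5 kb of them. The nearest peak was 10148 bp from Tlr9 and carried the name of Twf2. The nearest to Myd88 was 5084 bp away and carried the name of Slc22a14. The nearest to Nlrp6 was 5559 bp away and carried no name. Of 21938 protein-coding genes, 16.7% likewise had no peak within 5 kb and 34.9% had none within 1 kb of a transcript start. Among markers of the intestinal epithelium, Epcam and Vil1 were also without a named peak although these cells are defined by them. Only the name was checked for these markers, so a peak on them could carry another gene's name. A missing peak in the table is not taken as a measurement of closed chromatin.

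Most of the genes with a peak had one at the gene start. Peaks covered the annotated starts of Tlr2 (chr3:83841001-83842050, over the 5′ UTR), Tlr4 (chr4:66827251-66828300, over the 5′ UTR and a coding exon), Tlr3 (chr8:45409951-45411750), Nod1 (chr6:54971701-54973350) and Nod2 (chr8:88646701-88647750). The single Tlr1 peak (chr5:64932151-64932600) was intronic but lay 161 bp from the start of a transcript. The single Tlr5 peak (chr1:182956351-182958600) lay over an exon of a transcript, 1523 bp from the nearest start. The other 4 Tlr4 peaks were intronic and lay 20.6, 31.5, 72.9 and 81.0 kb from the gene start. Tlr2 had a further peak over its coding exon and 3′ UTR (chr3:83835901-83837250), and another beyond its 3′ end (chr3:83831101-83831700) that overlapped the annotated pseudogene Gm7115. The deposited distance of that last peak from Tlr2 was 4573 bp. By the GENCODE annotation Tlr2 was thus not its nearest gene, and the peak is counted for Tlr2 by its deposited name only. Nod2 had a peak upstream of the gene (chr8:88642501-88644150), one in an intron and one over a coding exon. The Tlr3 peak also overlapped the antisense gene Gm45542, so its reads cannot be assigned to either gene alone.

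The values are read counts on a log2 scale after normalization of every library to the largest one. The libraries held between 4339306 and 16301164 reads in peaks, with KO3 the shallowest and WT3 the deepest, so that 1 read counted as 3.99 in KO3 and as 1.00 in WT3. Over the sensor peaks the reads in a single library ranged from 3 to 551. Errors are SD over 3 libraries unless stated otherwise. The labels do not say whether the libraries of a group came from separate mice, and p-values measure the spread between these libraries only.

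**Figure D1:**
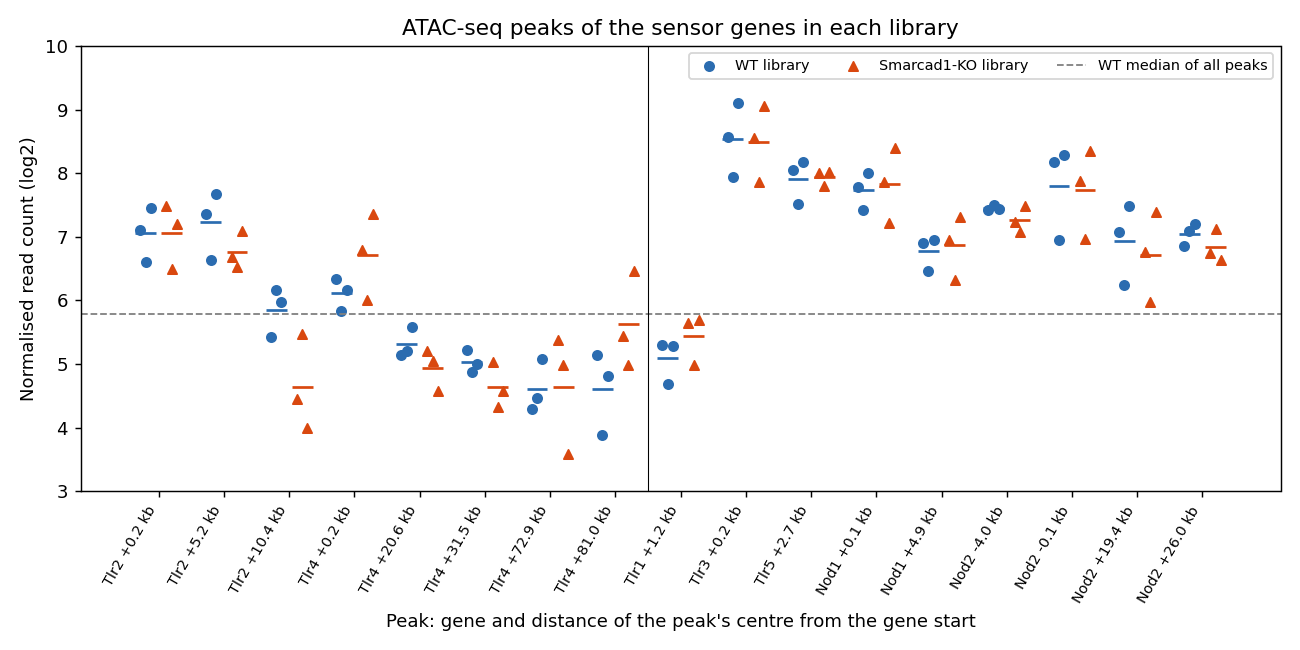
Normalised read count (log2) of the 17 sensor peaks in each WT library (blue circles) and Smarcad1-KO library (orange triangles), with the group means as short lines; the x axis names the gene and the distance of the peak's centre from the gene start, and the vertical line separates Tlr2 and Tlr4 from the other sensors. The 4 intronic Tlr4 peaks and the Tlr1 peak had WT means below the median of all peaks (5.79, dashed), and the groups overlapped at every peak.

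At Tlr2, the gene-start peak had WT values of 7.10, 6.61 and 7.45 (log2) and KO values of 7.48, 6.50 and 7.21. The groups overlapped throughout, and the difference was 0.01 (95% confidence interval -0.69 to 0.70). The Tlr2 peak over the coding exon and 3′ UTR was the strongest of the gene in WT, with values of 7.37, 6.63 and 7.68 in WT and 6.68, 6.52 and 7.08 in KO. Here 2 WT values lay above all KO values, and the difference was -0.47 (interval -1.14 to 0.21, unadjusted p = 0.161 by limma), and it ran from -0.76 to -0.24 when each library was left out. The peak beyond the 3′ end had WT values of 5.43, 6.16 and 5.98 and KO values of 4.45, 5.47 and 4.00. KO1 and KO3 lay below every WT library, while KO2 lay just above the lowest WT value. Mean normalized reads were 5.86 ± 0.380 in WT and 4.64 ± 0.757 in KO (log2, n = 3 each), a difference of -1.22 with a standard error of 0.363, or 0.430 of the WT level. The limma p-value was 0.00445 unadjusted, and with Benjamini-Hochberg adjustment over all peaks it was 1.00, so the peak did not pass the threshold of 0.05 in the fit without covariates. The reads behind these values were 22, 39 and 63 in WT and 10, 31 and 4 in KO. All 12 of its consecutive 50-base pieces matched 1 place in the genome exactly.

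Beyond the Tlr2 3′ end, a further peak on the same side (chr3:83828101-83828700) lay 7572 bp from the gene and carried no gene name. It is not among the 17 peaks and was picked for its values. Its values were 6.46, 6.31 and 6.73 in WT and 5.37, 5.91 and 6.08 in KO. Every KO library was below every WT library there, which was so for 4.10% of all peaks, and the difference was -0.71 (unadjusted p = 0.0198 and adjusted p = 1.00, limma). The upstream neighbour of Tlr2, 11234 bp from the gene, differed by 0.24 (interval including 0, unadjusted p = 0.401, limma). A more distant neighbour on the 3′ side, 17472 bp from the gene, differed by 0.09 (unadjusted p = 0.859, limma).

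At Tlr4 the peaks ran in both directions. The gene-start peak had values of 6.33, 5.83 and 6.17 in WT and 6.80, 6.01 and 7.35 in KO. KO1 and KO3 lay above all WT libraries and KO2 among them. The difference was 0.61 (interval -0.09 to 1.31, unadjusted p = 0.0822 by limma). The intron peak 81.0 kb into the gene, the weakest sensor peak in WT, had values of 5.14, 3.88 and 4.81 in WT and 5.45, 4.98 and 6.46 in KO. KO1 and KO3 again lay above every WT library, and KO2 below the highest of them. The difference was 1.02 with a standard error of 0.405 (interval 0.15 to 1.88, unadjusted p = 0.0242 and adjusted p = 1.00, limma), from 18, 8 and 28 reads in WT and 20, 22 and 22 in KO. The difference fell to 0.60 without KO3 and to 0.65 without WT2. In WT this intron peak stood at percentile 2.85 of all peaks, and at percentile 0.235 per kb of width. Which libraries entered the peak call is not given. Whether this peak was kept only for its KO reads was not tested, and its p-value does not allow for that. The gene-start difference was 0.29 without KO3 and 0.96 without KO2. The remaining intron peaks of Tlr4 differed by -0.36, -0.39 and 0.03, with intervals that all included 0.

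**Figure D2:**
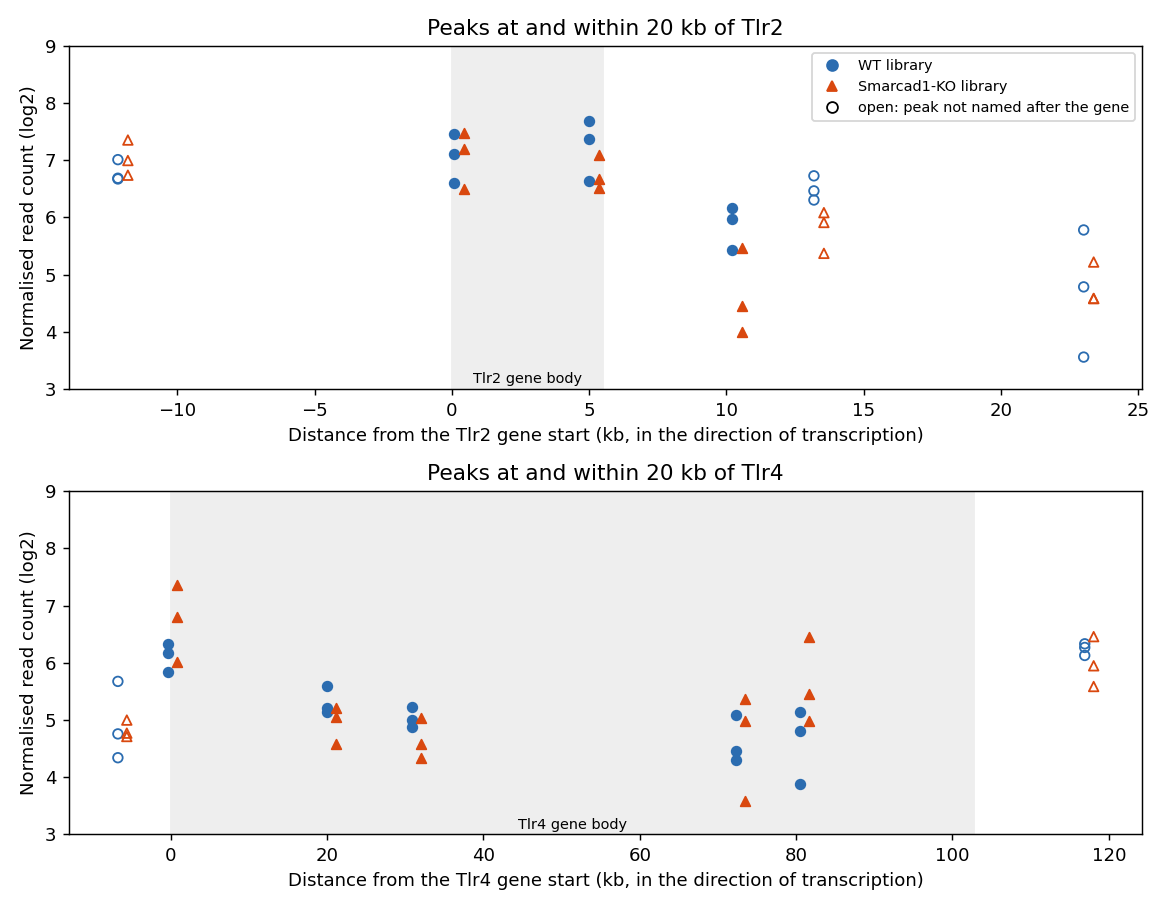
Normalised read count (log2) of each library at peaks of the Tlr2 (top) and Tlr4 (bottom) loci against distance from the gene start in kb in the direction of transcription; WT libraries are blue circles, Smarcad1-KO libraries orange triangles, filled symbols are peaks named after the gene, open symbols other peaks within 20 kb, and grey marks the gene body. KO values were lower at the Tlr2 peak 10.4 kb from the start (difference -1.22), and higher at the Tlr4 peaks 0.2 and 81.0 kb from the start (0.61 and 1.02), none past the adjusted threshold in the fit without covariates.

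At the other sensors no interval excluded 0. Tlr3, with a single peak at its start, had the highest sensor values of 8.57, 7.95 and 9.11 in WT and 8.55, 7.86 and 9.06 in KO. The libraries spread over more than a log2 unit within each group, and the groups differed by -0.05 (interval -0.87 to 0.78). Tlr5 had values of 8.05, 7.52 and 8.17 in WT and 8.01, 7.80 and 8.02 in KO, a difference of 0.03. Tlr1, the partner of Tlr2, had values of 5.29, 4.69 and 5.29 in WT and 5.65, 4.98 and 5.70 in KO. KO1 and KO3 were above all WT libraries, KO2 was not, and the difference was 0.35 (interval -0.29 to 1.00, unadjusted p = 0.262, limma), running from 0.15 to 0.58 when each library was left out.

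The groups overlapped at the cytosolic receptors as well. The Nod1 gene-start peak had values of 7.78, 7.42 and 8.0 in WT and 7.87, 7.22 and 8.39 in KO, and its intron peak had 6.90, 6.46 and 6.95 in WT and 6.96, 6.33 and 7.32 in KO. Both differed by 0.09. The Nod2 gene-start peak had values of 8.17, 6.95 and 8.29 in WT and 7.88, 6.96 and 8.35 in KO, with a difference of -0.07 (interval -0.95 to 0.81). The other Nod2 peaks differed by -0.18 upstream of the gene, -0.22 in the intron and -0.21 over the coding exon. All 4 Nod2 differences were thus below 0 and all their intervals included 0. The smallest unadjusted p-value among the 9 peaks of the other sensors was 0.262. At the gene-start peaks of Tlr2, Tlr4, Tlr3, Nod1 and Nod2 the second library was the lowest of its group in WT and in KO alike, and the same libraries had the lowest median over all peaks, 5.63 in WT2 and 5.69 in KO2.

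**Figure D3:**
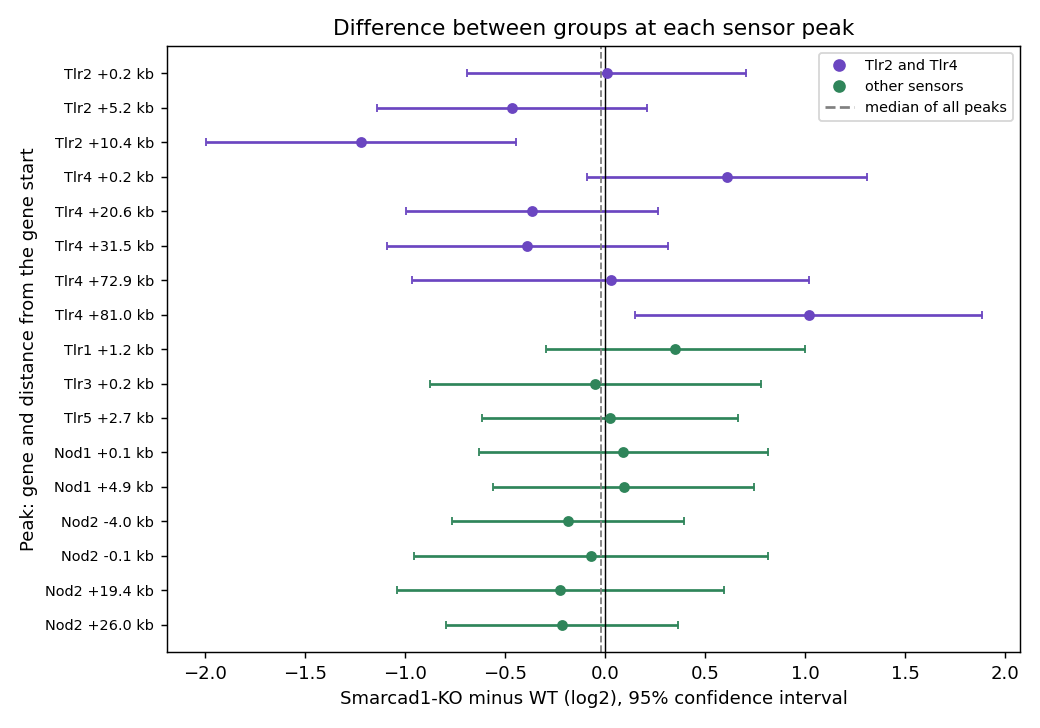
Smarcad1-KO minus WT difference (log2) of each sensor peak with its 95% confidence interval from limma, for Tlr2 and Tlr4 (purple) and the other sensors (green); the y axis gives the gene and the distance from its start, and the dashed line is the median of all peaks. The intervals excluded 0 at 2 peaks, Tlr2 at 10.4 kb (-1.22) and Tlr4 at 81.0 kb (1.02), before any adjustment.

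Across all 17 sensor peaks, 0 were called by limma at an adjusted p-value below 0.05, where the share called among all 123510 peaks was 0%. The lowest adjusted p-value of any peak was 0.1435 in this limma fit. The study's own edgeR test did report sites with changed accessibility, mostly increases, so the 0% belongs to this fit on log2 values. Before adjustment, 2 sensor peaks had p-values below 0.05, 1 lower and 1 higher in KO, against a background of 2.28% of all peaks (1.37% lower and 0.909% higher). In no sensor peak did the groups separate completely, which happened in 6.80% of all peaks. The median difference was -0.05 over the sensor peaks and -0.02 over all peaks, and the sensor median turned to 0.17 without WT3 and to 0.14 without KO2. In 8 sensor peaks the KO mean was higher and in 9 lower, with 53.1% of all peaks lower. The widths of the intervals show what these libraries could resolve, since the median standard error of a sensor peak's difference was 0.327. The summed levels of cell type markers overlapped between the groups. The 13 peaks of leukocyte markers took 0.0513 to 0.0741 per 1000 of the normalized reads in WT and 0.0486 to 0.0714 in KO. They stood on 7 of 14 marker genes, and among the defining genes without a named peak were Cd3e, Cd4, Cd8a, Cd68 and Spi1. The 33 peaks of epithelial markers took 0.673 to 0.797 per 1000 in WT and 0.771 to 0.804 in KO, and their part in these results was not tested. The 24 peaks of stromal and endothelial markers took 0.121 to 0.155 per 1000 in WT and 0.121 to 0.154 in KO. Within each group the leukocyte share was highest in WT2 (0.0741) and KO2 (0.0714). So was the stromal share, at 0.155 in WT2 and 0.154 in KO2. The Tlr2 peak beyond the 3′ end was also highest in WT2 (6.16) and KO2 (5.47). Whether these values are linked was not tested.

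The Tlr2 and Tlr4 peaks were then set against those of the other sensors. Their median difference between KO and WT was -0.18 over 8 peaks and -0.05 over the 9 peaks of the other sensors. The range was wider for Tlr2 and Tlr4, from -1.22 to 1.02, than for the others, from -0.22 to 0.35. The 2 unadjusted p-values below 0.05 both belonged to Tlr2 and Tlr4. These genes also held the 5 sensor peaks with the fewest reads in a single library, 3 to 8 against 13 or more at the others. In WT libraries the pooled Tlr2 and Tlr4 peaks had a lower median per peak, 5.58 (log2) against 7.45 for the other sensors. Taken apart, the median was 7.05 over the Tlr2 peaks and 5.03 over the Tlr4 peaks. By gene among the others it was 5.09 at Tlr1, 7.25 at Nod1, 7.25 at Nod2, 7.91 at Tlr5 and 8.54 at Tlr3. Tlr2 thus stood near Nod1 and Nod2, and Tlr4 near Tlr1. Within each library, the pooled Tlr2 and Tlr4 median minus that of the other sensors was -2.09, -1.57 and -1.70 in WT. It was -1.82, -1.82 and -1.97 in KO, so the groups overlapped in this measure. The contrast was smaller per length. The median width was 525 bp for Tlr2 and Tlr4 and 1650 bp for the other sensors, and per kb of peak the medians were 6.53 and 6.74, a difference of -0.22.

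**Figure D4:**
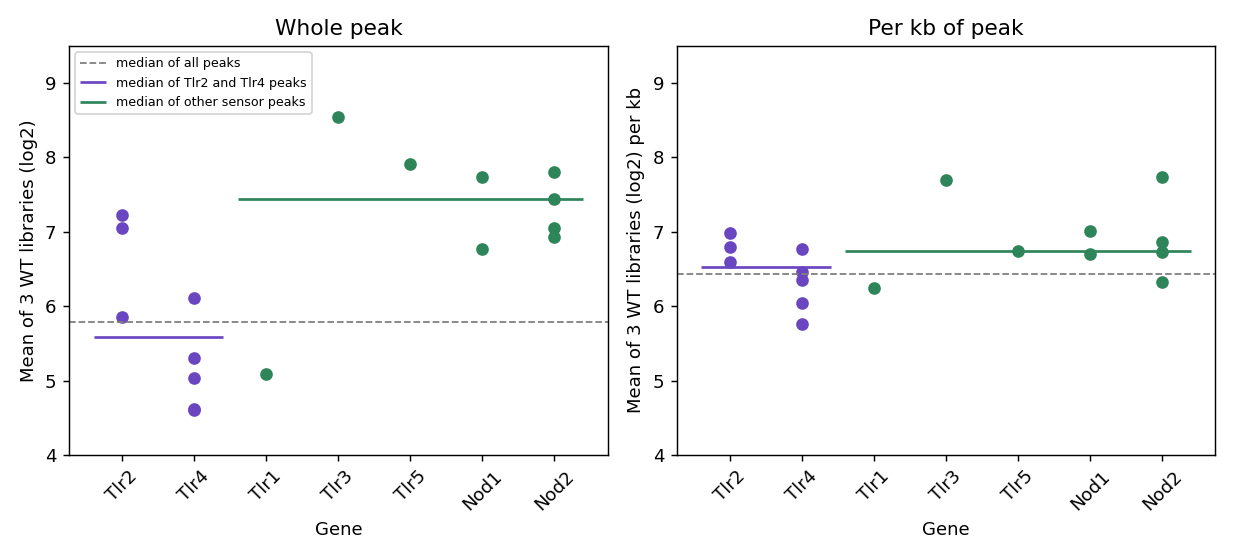
Mean of the 3 WT libraries (log2) at each sensor peak by gene, over the whole peak (left) and per kb of peak width (right), with the median of all peaks (dashed), of the Tlr2 and Tlr4 peaks (purple line) and of the other sensors' peaks (green line). The medians of both sets were 5.58 and 7.45 for whole peaks and 6.53 and 6.74 per kb.

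Ordered by reads per kb over all of a gene's peaks in WT, Tlr3 stood highest at 7.69 ± 0.581 (log2 per kb, n = 3). It was followed by Nod2 at 6.95 ± 0.338, Nod1 at 6.90 ± 0.283, Tlr2 at 6.85 ± 0.361, Tlr5 at 6.74 ± 0.344, Tlr1 at 6.24 ± 0.349 and Tlr4 at 6.24 ± 0.231. The WT values of every gene overlapped those of the next in this order. The median over all 18004 named genes was 6.95. Tlr3 lay above 83.7% of these genes in WT, Nod2 above 50.1%, Tlr1 above 9.59% and Tlr4 above 9.39%. In KO the level of Tlr4 was 6.59 ± 0.404 and that of Tlr2 6.51 ± 0.237 (log2 per kb, n = 3 each), so that both genes stood closer together than in WT, but the group ranges overlapped for each. On sums over all peaks of a gene, limma called 0 of 18772 genes and 0.815% had an unadjusted p-value below 0.05. The Tlr2 sum differed by -0.33 (interval -0.89 to 0.23, unadjusted p = 0.217, limma), the Tlr4 sum by 0.36 (interval -0.20 to 0.92, unadjusted p = 0.187, limma), and the Nod2 sum by -0.16 (interval -0.79 to 0.48).

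Genes were also ranked by how closely their sums followed those of Tlr2 and Tlr4 over the 6 libraries. The closest to Tlr2 were Gm17384, Pla2g4c and Anapc10 (Pearson r = 0.990, 0.989 and 0.987), and to Tlr4 an entry named U6, Gna14 and Iqgap3 (0.999, 0.995 and 0.993). The libraries were few, differed in depth and shared a normalization. At r above 0.95, 67 genes followed Tlr2 and 128 followed Tlr4 among 18771 compared.

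The genes that work with these sensors gave the setting. A list of 69 pathway genes had peaks on 57, with 160 peaks in all, and limma called 0 of them. Before adjustment, 4 were higher and 1 lower in KO at a p-value below 0.05, against 0.909% higher and 1.37% lower among all peaks. The groups did not overlap at 6 of the 160 peaks, 5 higher and 1 lower, against the background of 6.80% of all peaks. The higher ones belonged to Cyld, Ly96, Nlrx1 and Tab2 and the lower one to Il18. Their median difference was 0.08, with 112 peaks higher and 48 lower in KO. Over all peaks with a gene name the median was 0.01, with 31767 of 61914 higher, and over the epithelial marker peaks it was 0.13, with 25 of 33 higher. Their part in the pathway result was not tested. Among co-receptors and proteins that handle ligands, all 6 genes had peaks. The strongest belonged to Hmgb1, a nuclear protein that acts as a danger signal outside the cell (WT mean 9.16, difference 0.06). The Ly96 peak (chr1:16695001-16695450), for the partner of Tlr4, had values of 4.29, 4.34 and 5.21 in WT and 5.58, 5.38 and 5.70 in KO. Every KO library was above every WT library there (2.70% of all peaks), with a difference of 0.94 (unadjusted p = 0.0102 and adjusted p = 1.00, limma) from 10 to 37 reads per library. In WT the Ly96 peak stood at percentile 2.98 of all peaks, and at percentile 0.249 per kb of width. Whether it was kept in the peak call only for its KO reads was not tested. Among further Toll-like receptors, Tlr7, Tlr8, Tlr11 and Tlr13 had no named peak, Tlr12 differed by 0.11, and Tlr6, another partner of Tlr2, by 0.56 (unadjusted p = 0.0845, limma).

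Adaptors and kinases held the strongest pathway peak, at the gene for Ripk2, the kinase that relays the signal of Nod1 and Nod2. It had values of 11.5, 10.4 and 11.7 in WT and 11.2, 10.2 and 11.7 in KO, a difference of -0.15. A Tab1 peak, for a partner of the kinase Map3k7, differed by 0.70 (unadjusted p = 0.0358, limma). In this group 18 of 19 genes had peaks, and 2 of 58 peaks were higher and 1 lower at an unadjusted p-value below 0.05 (2.28% of all peaks in either direction). Named after their values were seen, the others were a peak of Tab2, which also binds Map3k7 (difference 0.71, unadjusted p = 0.0472, limma), and a peak of Irak3, which restrains Toll-like receptor signalling (-0.71, unadjusted p = 0.0418, limma). None of the 19 peaks of transcription factors passed that limit, and their strongest, at Relb, a subunit of NF-kB, differed by -0.04, while the smallest p-value of the group was at Irf5 (difference 0.26). Nor did any of the 16 peaks of negative regulators, where Cyld, a deubiquitinase that restrains NF-kB, held the strongest (difference -0.07) and a weaker peak with a difference of 0.46. Inflammasome and NLR genes had 37 peaks on 13 of 15 genes. The strongest was at Il18, an interleukin of the epithelium (difference -0.00094), and Naip1, a receptor for bacterial secretion proteins, differed by 0.87 with values of 6.14, 6.43 and 6.09 in WT and 7.27, 6.43 and 7.58 in KO (unadjusted p = 0.0139, limma). Naip1 belongs to a family of similar neighbouring genes, so reads at it may be shared with its copies. Among cytosolic sensors of nucleic acids, 4 of 7 genes had peaks, with Mavs the strongest (difference 0.18) and Ddx58 at 0.22. Wdfy1, which is known to act with Tlr3 and Tlr4, had 7 peaks with differences from -0.27 to 0.56, none with an unadjusted p-value below 0.05.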

How the data were processed

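ATAC-seq was available for 3 WT and 3 Smarcad1-KO libraries of small intestinal crypts, grouped and numbered by their titles. Per the study's methods and the submitters' processing notes, the authors trimmed reads with Trim Galore (0.4.1), mapped them to GRCm38 with Bowtie2 (2.2.5), kept reads with a mapping quality of at least 20 in SeqMonk (1.44.0) without duplicates, and called a single set of MACS peaks. Which libraries entered that call is not given in the sources used here. The log2 values the authors deposited are read counts per peak, normalized to the largest library. A smaller deposited table holds the authors' own edgeR comparison and was not used.

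Each library's values were whole multiples of the value of 1 read (tolerance 0.02 reads, 100% of values), which gave the reads per peak. KO was compared with WT on the deposited log2 values of all 123510 peaks in limma (3.58.1, R 4.3.3, lmFit, then eBayes with trend, two-sided). Adjustment was by Benjamini-Hochberg over all peaks, with a threshold of 0.05 and no filter, pseudocount or covariate. In tests, the recovered reads served only the voom alternative. Sums per gene were tested alike over 18772 gene identifiers. The limma fit on peaks was checked on simulated data with planted changes larger than any sensor difference and a common spread for all peaks. That check does not show whether changes of the size seen at the sensor peaks could be called. Positions and transcripts came from GENCODE vM21, which is on GRCm38, and sequences from the RefSeq copy of GRCm38.p6. Every one of 500 RefSeq promoters drawn at random equalled the genome at its coordinates.

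The genes, the pathway and marker lists, the motifs and the comparisons were chosen with earlier results of these data known. Named for each gene were its strongest WT peak, the peak with the smallest p-value, peaks within 1 kb of a transcript start and peaks whose groups did not overlap. In each pathway group the strongest WT peak and the peak with the smallest p-value were named. For likeness, the 3 genes with the highest r were named. Sequences were to be centred on the strongest peaks, but those lie on UTRs, so windows upstream of the gene start were shown instead. Alternatives were median centring, quantile normalization, the trimmed mean of M values, voom on the recovered reads, a minimum mean of 50, a pseudocount of 5, the replicate number as a block, leaving out each library, an adjusted threshold of 0.1 and other naming distances. Intervals reflect the spread between libraries. Each per-library column was assigned to its sample by title.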

Additional observations from a re-analysis of the deposited data

How the results depend on the processing

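Of all peaks, 0 were called in the main analysis, and also at an adjusted threshold of 0.1, with a pseudocount of 5 and with a minimum mean of 50. The count was 2 after median centring, 2 after scaling by trimmed means, 3 after quantile normalization, 3 with voom, and 0 to 30 when each library was left out, with 30 without KO2 and 1 without WT3. Sensor peaks called stayed at 0 in all of these, but the minimum mean of 50 kept only 11 of the 17 sensor peaks. The 2 sensor peaks with main-analysis limma p-values below 0.05 before adjustment were not among the 11, so they could not be called there. Gene sums called were 0 to 2 when each library was left out, with 2 without KO2 and 1 without WT3. With the replicate block, limma called 272 of all peaks (0.220%), 38 gene sums, 1 sensor peak, namely the Tlr2 peak beyond the 3′ end (adjusted p = 0.0261, difference -1.22), and 1 pathway peak, at Naip1 (adjusted p = 0.00387). The block changed no other call among the sensor genes. Same-numbered libraries deviated together with r of 0.04, 0.42 and 0.41 for numbers 1, 2 and 3. For WT2 with KO3 r was -0.35 and for WT3 with KO2 it was -0.46, so numbers 2 and 3 shared deviations. WT1 had r of 0.04 with KO1 and with KO3 alike. As number 1 showed no shared deviation, the numbers were not taken to pair the samples. The adjusted p-value of that Tlr2 peak ranged from 0.0261 to 1.00 over the alternatives, and its difference from -1.64 to -0.90 when each library was left out. The lower median of the pooled Tlr2 and Tlr4 peaks in WT, -1.86 against the other sensors, was -0.22 per kb. It was -1.13 with the strongest peak of each gene. Their median difference between KO and WT minus that of the other sensors, -0.13, ranged from -0.45 without KO2 to 0.067 without KO3. With a minimum mean of 50 it was 0.067, but on fewer peaks. That filter left out the Tlr2 peak beyond the 3′ end, all intron peaks of Tlr4 and the Tlr1 peak. Within 20 kb there were 43 peaks instead of 17. Among single peaks and settings, 191 values kept their direction and side of the threshold, 1 passed it and 23 reversed, all with unadjusted p-values above 0.4. The Tlr2 gene-start difference was -0.0078 with quantile normalization and -0.013 with voom. When each library was left out, differences crossed 0 for that peak (-0.22 to 0.29), Tlr3 (-0.34 to 0.27), the Tlr4 intron peak at 72.9 kb (-0.34 to 0.56), Tlr5 (-0.17 to 0.15), Nod1 at the intron (-0.13 to 0.36) and the start (-0.19 to 0.39), and Nod2 at the start (-0.50 to 0.31) and the intron (-0.57 to 0.14). The median over all peaks itself shifted to -0.14 without WT2, -0.11 without KO3, 0.08 without KO2 and 0.08 without WT3, and that over the sensor peaks ranged from -0.19 to 0.17. The cause of these changes was not tested. Depth limits KO3 most, where 1 read counted as 3.99 and a sensor peak had as few as 3 reads.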
